A study of Homo sapiens with 24 samples.

Results

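The nuclear tRNA genes are described here by the Myc peaks beside them. Members were all genes of biotype tRNA on chromosomes 1 to 22 and X in the NCBI RefSeq annotation of GRCh38.p14, the hg38 assembly. There were 443 such genes among 59094 annotated genes on the same chromosomes, and the peak values had no part in choosing them. The readout was CUT&Tag for the transcription factor Myc: a transposase is brought by antibodies to the factor and cuts adapters into nearby DNA, and sites where fragments pile up are called as peaks. Both libraries used are of MIA PaCa-2, a cell line derived from a pancreatic carcinoma, and both carry a Tet-On construct from which doxycycline induces MED30, a subunit of the Mediator complex. The control library was made without doxycycline, and the other is titled as day 5 of doxycycline, although the protocol in the labels speaks of 2 days. The comparison addresses where Myc is found when MED30 is overexpressed. All Myc libraries of the series are of this line, so induced MED30 and doxycycline itself cannot be told apart. The level of MED30 was not checked here. For targets other than histones the protocol fixes the cells lightly with formaldehyde. The labels do not say whether the line is a single clone.

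Transfer RNAs carry amino acids to the ribosome, and each recognises its codons through an anticodon. Their genes are short and are transcribed by RNA polymerase III from promoter elements inside the gene, the A and B boxes, which recruit TFIIIC and then TFIIIB. Myc is best known at promoters of RNA polymerase II, and it is also known to bind TFIIIB and to raise transcription by RNA polymerase III. A gene symbol such as TRQ-TTG1-1 names the amino acid (Q, glutamine), the anticodon (TTG), a sequence family and the copy within it. The tables used here hold neither the sequence nor the strand of tRNA genes, so the sides of a gene were not told apart.

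Without doxycycline 3472 peaks were listed on the assembled nuclear chromosomes, and at day 5 6727. The lists carry no sequencing totals, so the depth of the libraries is unknown. The number of fragments over each summit, which could be recovered, had a median of 11 and 12 over listed peaks, a value that the caller's limit and the length of the list also set. With 1 library per condition no difference below has a replicate check and none was tested. Intervals are exact 95% intervals, Clopper-Pearson for shares and Poisson for fragments, and cover counting error only. Control IgG libraries of the series were not analysed here, so what share of these peaks IgG would also give was not tested. Peak lists do not measure RNA, and the labelled cell type was not checked against marker genes.

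A tRNA gene was called marked when a Myc peak reached within 1 kb of its span. Without doxycycline 81 of the 443 genes were marked (18.3%, interval 14.8 to 22.2), and at day 5 125 were (28.2%, 24.1 to 32.7). By the same rule 7.95% of all RefSeq genes were marked without doxycycline and 14.7% at day 5. Protein-coding genes had a peak within 1 kb of either end in 14.5% and 27.5% of cases. By the span rule used for tRNA genes, 17.1% and 31.7% of coding genes were marked. Both tRNA shares lay above those of all genes. The coding shares by the span rule fell inside the tRNA intervals in both libraries, and the share by either end did so at day 5. Both lists marked 66 tRNA genes, day 5 alone 59 and the library without doxycycline alone 15, while 303 (neither list) were unmarked. Of all RefSeq genes, 7.01% were marked by both lists, 7.69% by day 5 alone and 0.941% by the other list alone. For coding gene ends the same 3 shares were 12.9%, 14.5% and 1.57%. Put as shares of the marked genes, 47.2% of the day 5 tRNA genes (38.2 to 56.3) were unmarked without doxycycline, beside 53% of coding genes (51.6 to 54.3). Of tRNA genes marked without doxycycline 18.5% (10.8 to 28.7) were unmarked at day 5, beside 10.9% of coding genes (9.74 to 12).

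Neighbouring tRNA genes often share a peak, so the genes are not independent. The 81 marked genes rested on 53 peaks and the 125 on 90. A single peak reached several tRNA genes in 21 and 28 cases, and at most 4. With tRNA genes at most 2 kb apart joined into loci, 51 of 339 loci (15%, 11.4 to 19.3) were marked without doxycycline and 90 (26.5%, 21.9 to 31.6) at day 5. The peaks were of middling strength. By the authors' −log10 q-value they ranked from 217 to 3205 of 3472 without doxycycline and from 429 to 6629 of 6727 at day 5. The better-ranked 50% of each list held 52.8% and 45.6% of them. Their median width was 535 and 649 bp, against 509 and 580 bp for the whole lists. Of the 53, 42 (79.2%, 65.9 to 89.2) overlapped a day 5 peak, where 82.2% of all peaks did. Of the 90, 41 (45.6%, 35 to 56.4) overlapped a peak without doxycycline, where 42.4% did. They held a median of 12 summit fragments in both libraries, with extremes of 5 and 32 without doxycycline and of 3 and 37 at day 5.

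Most Myc peaks lie at ends of coding genes, so the tRNA genes were divided by whether a coding gene end lay within 1 kb. Such an end was present for 56 tRNA genes. Of these, 24 (42.9%, 29.7 to 56.8) were marked without doxycycline and 38 (67.9%, 54 to 79.7) at day 5. The other 387 tRNA genes were marked in 57 cases (14.7%, 11.4 to 18.7) and 87 cases (22.5%, 18.4 to 27). Peaks that mark tRNA genes were within 1 kb of a coding gene end in 41.5% and 36.7% of cases, against 66.2% and 66.5% of all peaks. The 31 and 57 peaks that were not made up 2.64% and 2.53% of all peaks away from coding gene ends.

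The same division was made for 4 other classes of non-coding genes, with no test between classes. Among 1688 microRNA genes away from coding gene ends 0.711% (0.368 to 1.24) were marked without doxycycline and 1.9% (1.3 to 2.67) at day 5. Among 1114 small nucleolar RNA genes the shares were 1.08% (0.558 to 1.87) and 1.71% (1.03 to 2.65). Long non-coding genes, whose spans are longer, stood at 2.11% and 3.71% of 13865. The intervals of these 3 classes did not overlap those of the tRNA genes in either library. Small nuclear RNA genes, the splicing RNAs among them, were at 13.3% (8.19 to 20) and 23.1% (16.4 to 30.9) of 143, with intervals that overlapped those of the tRNA genes. With a coding gene end within 1 kb, 42.9% and 67.9% of tRNA genes were marked. The shares there were 13.9% and 26.9% of 223 microRNA genes and 23.2% and 25.6% of 82 small nucleolar RNA genes. Long non-coding genes near such an end stood at 15.3% and 29.3% of 4312, and small nuclear RNA genes at 45.5% and 63.6% of 11. The classes were not matched on activity, copy number or mappability.

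**Figure D1:**
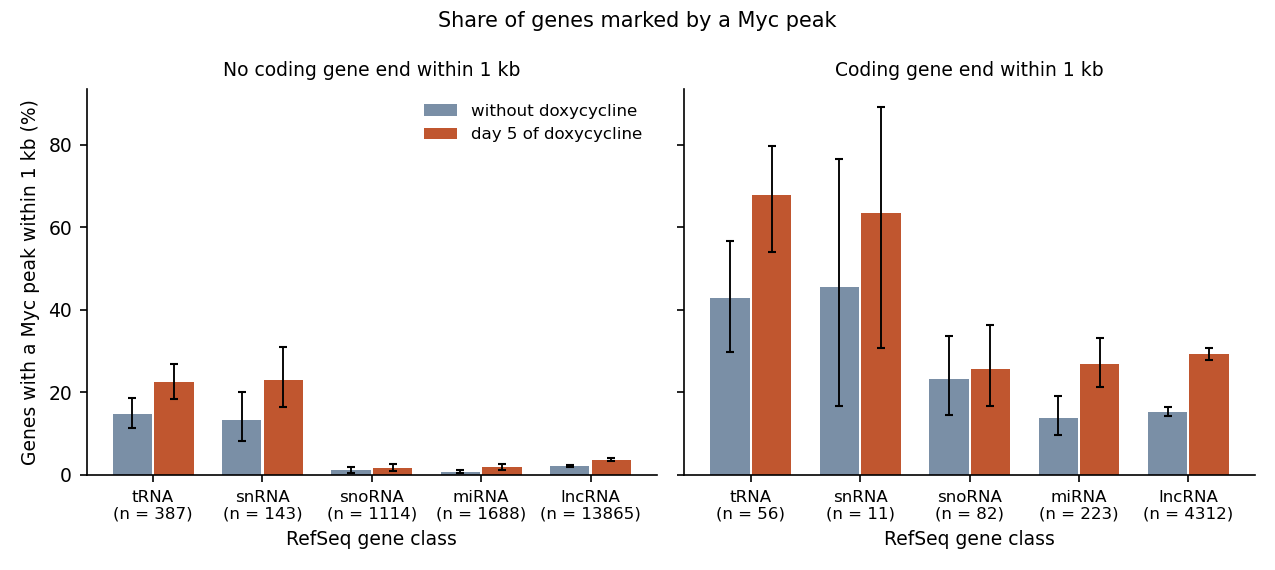
Share of genes (%) with a Myc peak within 1 kb of the span, by RefSeq gene class, for genes without (left) and with (right) a protein-coding gene end within 1 kb; bars are single libraries and error bars are exact 95% binomial intervals. Away from coding gene ends, 14.7% and 22.5% of tRNA genes were marked, close to snRNA genes and above snoRNA, miRNA and lncRNA genes.

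The summits lay close to the tRNA genes. Around the 387 genes without a coding gene end within 1 kb, summits at 1 to 250 bp from the span had a density of 8.99 per 100 kb without doxycycline (5.24 to 14.4) and 18.5 at day 5 (12.9 to 25.8). At 2 to 3 kb the density was 0 (up to 0.758) and 0.205 (0.0052 to 1.14). Around microRNA genes of the same kind the density at 1 to 250 bp was 0.378 (0.078 to 1.1) and 1.01 (0.435 to 1.99), beside 0.311 and 0.658 at 5 to 10 kb. Around the tRNA genes it was 0.732 and 1.04 at 5 to 10 kb. On the short tRNA spans themselves 4 summits lay in each library, a density of 13.8 per 100 kb. Of the 81 and 125 marked genes, 5 and 8 had the summit of their best-ranked peak inside the span, while the median distance was 270 and 241 bp. That peak overlapped the gene in 42 (51.9%) and 79 (63.2%) cases.

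**Figure D2:**
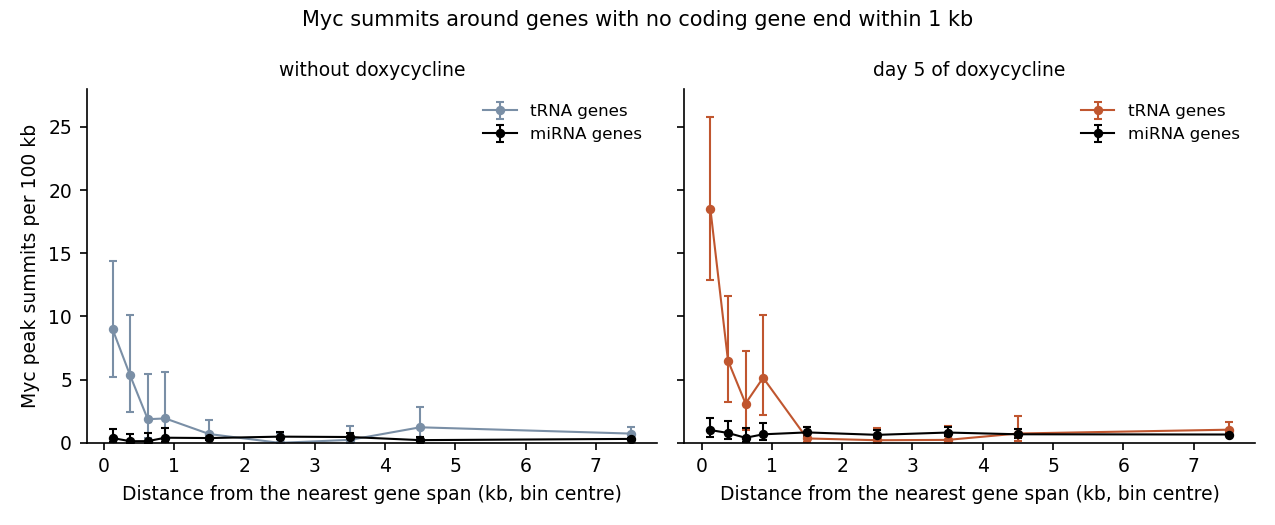
Density of Myc peak summits (per 100 kb) against the distance from the nearest gene span (kb, centre of each bin) for tRNA and microRNA genes without a coding gene end within 1 kb, 1 panel per library; points are single libraries and error bars exact 95% Poisson intervals. The tRNA curve falls from 8.99 and 18.5 in the bin at 1 to 250 bp to 0 and 0.205 at 2 to 3 kb.

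Few genes lay near the limit of 1 kb. The last genes inside it were TRW-CCA3-3, TRQ-TTG3-2 and TRQ-CTG6-1 without doxycycline, with the peak 846, 896 and 907 bp away. At day 5 they were TRA-AGC8-2, TRQ-CTG6-1 and TRR-TCT1-1, at 786, 788 and 863 bp. The first outside it were TRP-TGG3-2, TRQ-TTG3-1 and TRC-GCA2-2 without doxycycline at 1166, 1447 and 1502 bp. At day 5 they were TRP-TGG3-2, TRP-AGG2-2 and TRC-GCA2-2 at 1172, 1240 and 1350 bp.

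The tRNA gene with the highest-ranked day 5 peak was TRQ-TTG1-1, a glutamine tRNA gene at 49192528 to 49192599 of chromosome 17. It had 27 summit fragments without doxycycline (17.8 to 39.3) and 34 at day 5 (23.5 to 47.5). The summit lay inside the gene in both libraries, and the nearest coding gene end, of GNGT2, was 13635 bp away. Its peak ranked 291 of 3472 and 429 of 6727, and the gene lies in no cluster.

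Next in rank at day 5 came TRR-ACG1-2 and TRV-CAC1-6, arginine and valine genes on chromosome 6, which share 1 peak. It had 24 fragments (15.4 to 35.7) and 37 (26.1 to 51). An end of HMGN4, the gene of a nucleosome-binding protein, lies 240 bp from TRV-CAC1-6. TRE-CTC1-7, a glutamate gene at 125780247 to 125780318 of chromosome 6, had 21 (13 to 32.1) and 26 (17 to 38.1) fragments, 797 bp from an end of NCOA7, a nuclear receptor coactivator.

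On chromosome 11 a run of TRV-TAC1-1, TRV-TAC2-1, TRR-TCT3-2 and TRL-TAA3-1, from 59550629 to 59551837, shared 1 peak with 32 fragments in both libraries (21.9 to 45.2). No coding gene end lay within 22 kb of the run, the nearest being OSBP at 22561 bp. TRR-CCT4-1, an arginine gene within LUC7L2, a splicing factor gene on chromosome 7, had 18 (10.7 to 28.4) and 28 (18.6 to 40.5). An end of LUC7L2 lies 228 bp from TRR-CCT4-1, and the summits were 232 and 763 bp from this tRNA gene. TRT-AGT1-3, a threonine gene on chromosome 19 and 1258 bp from an end of WDR88, had 16 (9.15 to 26) and 22 (13.8 to 33.3). At each of these genes the intervals of the 2 libraries overlapped. Without doxycycline the best-ranked tRNA peak, at 217, was that of TRP-CGG1-1 and TRP-AGG2-1, proline genes on chromosome 1, with 26 fragments (17 to 38.1) against 15 at day 5.

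Over the genes marked in both lists there were 45 distinct pairs of peaks, each joining the best-ranked peaks of a gene in the 2 lists. A peak could enter more than 1 pair. The paired peaks did not overlap at TRH-GTG1-3, at TRH-GTG1-4, or at TRG-TCC3-1 with TRD-GTC2-11. Fragments were more numerous at day 5 in 33 pairs (73.3%), equal in 5 and fewer in 7. The median ratio of day 5 to no doxycycline was 1.26, with extremes of 0.545 and 2.43. At all 2854 pairs of overlapping peaks, matched by overlap and not through a gene, the median ratio was 1.43, and 80.6% had more fragments at day 5. These ratios were not corrected for depth, and depth and binding cannot be told apart in them.

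**Figure D3:**
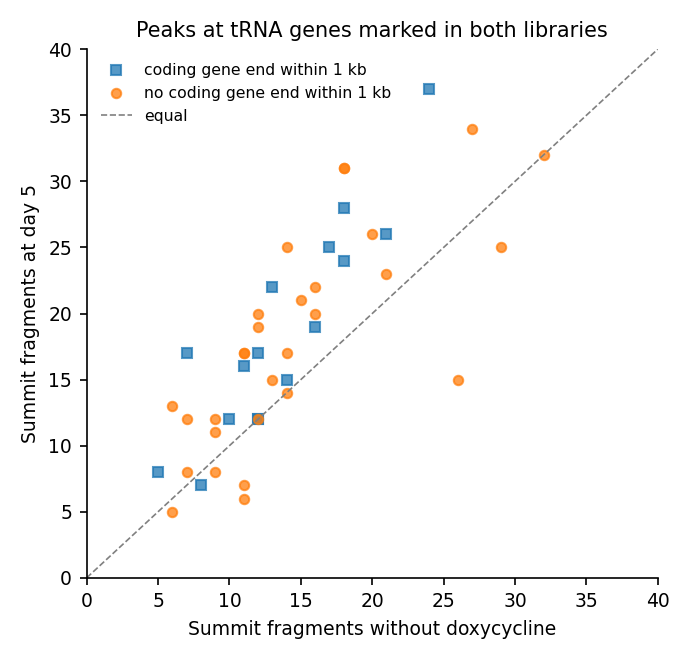
Fragments over the summit at day 5 against those without doxycycline, for the 45 pairs of peaks at tRNA genes marked in both lists, with squares for genes that have a coding gene end within 1 kb and circles for the others; the dashed line marks equal numbers. In 33 pairs the day 5 value is the higher.

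Of the genes marked at day 5 only, the highest-ranked were TRK-TTT5-1 and TRF-GAA1-3, lysine and phenylalanine genes beside the run on chromosome 11, with 20 fragments at a shared peak. TRF-GAA1-6 and TRN-GTT2-6, next to NDUFS7 on chromosome 19, had 15. TRY-GTA6-1, a tyrosine gene on chromosome 6, had 16, and TRI-TAT1-1, an isoleucine gene near PLEKHG2, 19. TRG-CCC2-1, a glycine gene 198 bp from an end of TIA1, the gene of an RNA-binding protein, had 14. TRS-TGA1-1 on chromosome 10 had 12, and TRP-AGG2-6 with TRT-TGT3-1 on chromosome 14 had 16. The peaks marking the 59 genes were weaker than those of the 66, with a median of 10 fragments at day 5 against 19. These values describe groups defined by the peak lists and were not tested.

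The strongest tRNA peak listed only without doxycycline was at TRE-TTC1-1, a glutamate gene at 130337128 to 130337199 of chromosome 2, 734 bp from an end of VMA22. It had 25 fragments (16.2 to 36.9) and rank 307 of 3472. At day 5 the nearest listed peak was 5013 bp away. TRK-TTT3-5, TRQ-CTG1-5, TRL-TAG1-1 and TRR-TCT2-1 on chromosome 17 shared a peak of 19 fragments (11.4 to 29.7) beside ALOXE3 and HES7, and had none within 18 kb at day 5. The nearest day 5 peak to TRR-TCT2-1 was at 18045 bp. TRR-ACG2-1 near SACM1L had 9 fragments, TRV-CAC2-1 had 7, TRW-CCA1-1 18, and TRS-GCT4-1 and TRX-CAT1-7 had 6 each. An unmarked gene lacks a peak past the caller's limit, and weaker Myc signal there was not measured.

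At tRNA genes the direction of the comparison between the libraries changed with the number of peaks taken. When the day 5 list was limited to its 3472 highest-ranked peaks, 68 tRNA genes were marked at day 5 against 81 without doxycycline. Then 50 were marked in both, 18 by the shortened list alone and 31 by the other alone. Coding genes with a peak at either end were then 15.7% at day 5, against 14.5% without doxycycline, and tRNA genes 15.3% against 18.3%. At day 5 the share of tRNA genes away from coding gene ends became 12.4%, against 14.7% without doxycycline. Small nuclear RNA genes were then at 20.1% against 15.6%, and small nucleolar RNA genes at 2.42% against 2.59%. MicroRNA genes were at 2.56% against 2.25%, and long non-coding genes at 5.53% against 5.25%. Of 37 other transcripts of RNA polymerase III, 11 were marked against 9.

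The promoter of a neighbouring coding gene lay under the same peak in some cases. Promoters in the RefSeq table span 300 bases around the start of a gene. Those overlapped by a peak that marks a tRNA gene numbered 15 without doxycycline and 26 at day 5, some genes having several. They were searched for CACGTG, the E-box that Myc with Max binds, which is its own reverse complement, so both strands were covered. It occurred in 2 of the 15 and 3 of the 26 (11.5%), beside 8.34% of all 22131 coding promoters in the table and 16.2% and 13.9% of those under any peak. The promoters were of PSMB3, a proteasome subunit, and POLR3E, a subunit of RNA polymerase III itself, in both libraries, and of NDUFS7, a subunit of respiratory complex I, at day 5.

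In POLR3E the motif does not lie wholly within the 250 bases upstream of the start. Those bases are shown for the other 2, from RefSeq with build GRCh38.p14, 5′ to 3′ on the plus strand, since they are where an E-box and a tRNA gene lie beside the same peak. Capitals mark the E-box.
PSMB3, chr17:38752491-38752740: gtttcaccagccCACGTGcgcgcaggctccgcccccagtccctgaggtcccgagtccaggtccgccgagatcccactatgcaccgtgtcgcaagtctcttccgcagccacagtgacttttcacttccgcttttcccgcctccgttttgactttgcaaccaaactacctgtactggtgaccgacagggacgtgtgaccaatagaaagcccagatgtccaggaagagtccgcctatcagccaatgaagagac
NDUFS7, chr19:1383657-1383906: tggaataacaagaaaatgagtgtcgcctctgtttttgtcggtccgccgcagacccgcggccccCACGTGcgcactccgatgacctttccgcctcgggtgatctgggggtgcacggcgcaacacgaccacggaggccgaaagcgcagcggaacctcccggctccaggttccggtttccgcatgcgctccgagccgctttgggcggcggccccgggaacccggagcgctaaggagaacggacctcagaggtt
The E-box of PSMB3 is at 38752503 to 38752508, inside the peak of both libraries, which ends at 38752550 without doxycycline and 38752636 at day 5. The tRNA gene there is TRN-GTT2-5 at 38751781 to 38751854, an asparagine gene, with 13 and 22 fragments. The summits were at 38752337 and 38752310, between the tRNA gene and the E-box. The E-box of NDUFS7 is at 1383720 to 1383725, and the day 5 summit at 1383619 lay inside TRN-GTT2-6 (1383563 to 1383636). POLR3E shares its peak with TRL-AAG2-4, a leucine gene at 22297140 to 22297221 of chromosome 16, 188 bp from its start, with 11 (5.49 to 19.7) fragments without doxycycline and 16 (9.15 to 26) at day 5. A match of letters is a description and not a site of binding.

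Peaks within 1 kb were found for most kinds of tRNA, without always overlapping the gene. The peaks at the 3 marked tryptophan genes, TRW-CCA4-1, TRW-CCA3-3 and TRW-CCA1-1, for example, lay 79, 846 and 70 bp away without doxycycline. Without doxycycline 20 of the 22 isotypes, which count initiator methionine and selenocysteine apart, had at least 1 marked gene, and at day 5 all 22 did. By isotype and anticodon 41 and 46 of 49 kinds had one, and in either list 47 did. The remaining kinds were Ile-GAT with 3 genes and Tyr-ATA with 1. Of 258 numbered sequence families, 64 and 86 had a marked gene. Such counts depend on the number of genes per kind, and none was set against an expected number. The 20 genes whose symbols carry no such number had no peak in either library, which allows a share of up to 16.8%.

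Among isotypes, arginine genes were marked in 11 of 26 cases without doxycycline and 12 at day 5 (46.2%, 26.6 to 66.6), and 8 of the 26 lie near a coding gene end. Tyrosine genes were marked in 2 and 7 of 13 (53.8%, 25.1 to 80.8). Aspartate genes were marked in 4 and 6 of 13, and none of the 13 has a coding gene end within 1 kb. Alanine genes, the most numerous, had 2 and 7 of 38 marked (18.4%, 7.74 to 34.3), and 33 of them lie in clusters. Cysteine genes had 3 and 3 of 29 (10.3%, 2.19 to 27.4), and elongator methionine 0 and 1 of 11 (9.09%, 0.23 to 41.3). The day 5 intervals of these isotypes overlap pairwise, the aspartate interval being 19.2 to 74.9, so no order was read from them. Without doxycycline the intervals of arginine (23.4 to 63.1) and alanine (0.644 to 17.7) did not overlap, and the difference was not tested. The 3 marked cysteine genes, TRC-GCA4-1, TRC-GCA2-3 and TRC-GCA2-4, are all on chromosome 17.

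**Figure D4:**
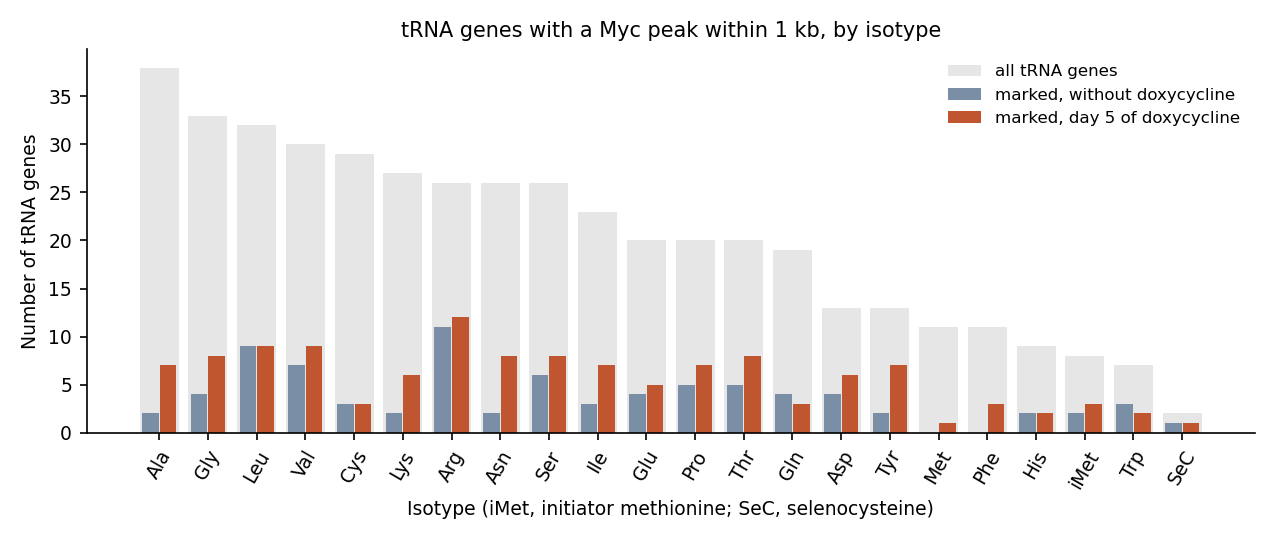
Number of tRNA genes by isotype (grey) with those marked by a Myc peak within 1 kb in each library (coloured bars). Every isotype has a marked gene at day 5, with 12 of 26 for arginine, 7 of 38 for alanine and 1 of 11 for elongator methionine.

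Initiator methionine tRNA begins every protein, and its 8 genes, TRX-CAT1-1 to TRX-CAT1-8, form a single numbered family. TRX-CAT1-1 near ILF2, TRX-CAT1-2 near the histone gene H4C8 and TRX-CAT1-8 were marked at day 5 only, with 11, 13 and 19 fragments, and TRX-CAT1-3 and TRX-CAT1-7 without doxycycline only. TRX-CAT1-4, TRX-CAT1-5 and TRX-CAT1-6 were unmarked, and no initiator gene was marked in both. Fragments were 8 at TRX-CAT1-3 and 6 at TRX-CAT1-7. Selenocysteine is carried by a tRNA of its own. TRU-TCA1-1, at 45478601 to 45478687 of chromosome 19, was marked in both libraries with 13 (6.92 to 22.2) and 15 (8.4 to 24.7) fragments, 3422 bp from the nearest coding gene end. TRU-TCA2-1 on chromosome 22 was unmarked.

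The tRNA genes lie in arrays on a few chromosomes. Joined where neighbours were at most 100 kb apart, 274 of them formed 15 clusters of at least 5 genes, named here by chromosome and a letter in order of position. In clusters 42 genes were marked without doxycycline (15.3%, 11.3 to 20.1) and 55 at day 5 (20.1%, 15.5 to 25.3). The 169 genes outside clusters were marked in 39 (23.1%, 17 to 30.2) and 70 (41.4%, 33.9 to 49.2) cases. Restricted to genes without a coding gene end within 1 kb, the shares were 12% (8.28 to 16.6) and 18.1% (13.6 to 23.4) in clusters against 20.3% (13.7 to 28.3) and 31.2% (23.4 to 40) outside. The latter intervals at day 5 meet at 23.4%, and the difference was not tested. Of whole chromosomes, 17 had 22 and 20 of its 33 tRNA genes marked, 19 had 2 and 7 of 7, 6 had 16 and 22 of 155, and X had none of 4. A coding gene end lay within 1 kb of 10 of these genes on 17, 5 on 19, 4 on 6 and 1 on X.

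The clusters were unequal. Cluster 17a (chromosome 17, 8119155 to 8227064) had 18 genes of 11 isotypes, of which 14 were marked without doxycycline and 9 at day 5, and 7 lie near a coding gene end. Its genes marked in both were TRS-CGA1-1 and TRT-AGT5-1 near PER1 (10 and 12 fragments), 4 genes beside BORCS6 (18 and 24) and 3 for which the nearest coding gene end is that of CTC1, a telomere replication factor (18 and 31). At TRG-TCC3-1 and TRD-GTC2-11, which are among these 3, the best-ranked peak without doxycycline did not overlap the day 5 peak. Another peak without doxycycline that reached both genes did overlap it, also with 18 fragments. The 14 and 9 marked genes of 17a rested on 5 and 3 peaks. Smaller clusters also had several genes marked at day 5, again on few peaks. In 11a 4 and 6 of 8 genes were marked, by 1 and 2 peaks. In 12a 2 and 4 of 5 were marked, by 1 and 2 peaks, and in 14a 2 and 6 of 14, by 1 and 4.

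The arrays of chromosome 6 differed among themselves. From 6a to 6d, between 26286526 and 27795932, the marked genes were 4 and 2 of 13, 3 and 7 of 31, 3 and 3 of 21, and 2 and 7 of 33. Without doxycycline the share in 6a was 30.8%, above that of all clustered genes, but it rested on 2 peaks. At day 5 the shares in 6b and 6d were 22.6% and 21.2%, on 5 and 6 peaks. Cluster 6e, at 28474552 to 28989083, had 43 genes, the most of any cluster, and 1 marked gene in each library. These were TRS-GCT4-1 with 6 fragments without doxycycline and TRA-CGC4-1 with 3 at day 5. No gene was marked in 6f with 6 genes, or in 7a and 7b, which hold 6 and 13 genes, all but 1 of them for cysteine. The nearest peaks to 7a and 7b were 219 and 455 kb away without doxycycline and 45.4 and 10 kb at day 5. In 16a, mostly proline and lysine genes, TRR-CCT3-1 alone was marked, without doxycycline, among 14. In 1a, repeated units on chromosome 1, 4 and 5 of 32 were marked, and in 5a 2 and 5 of 17. Reads from near-identical copies cannot be placed with certainty, and how they were treated is not given in the sources used here. Its part in the unmarked arrays was not tested.

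**Figure D5:**
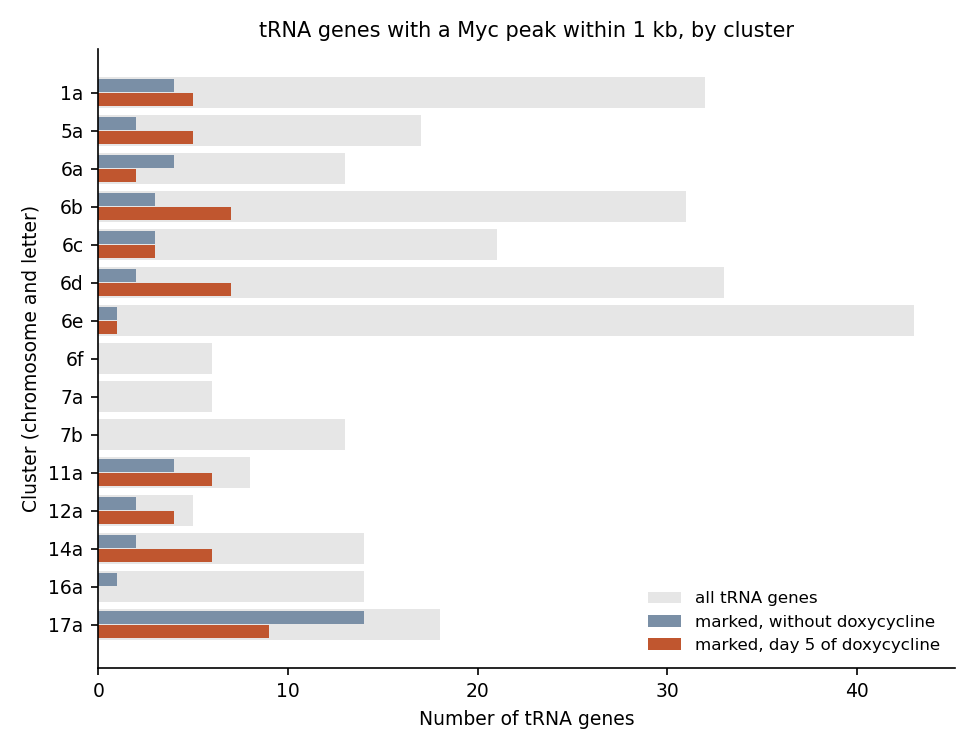
Number of tRNA genes in each cluster of at least 5 genes (grey) and those marked by a Myc peak within 1 kb in each library (coloured bars). Cluster 17a has 14 and 9 of 18 genes marked, and 6e has 1 and 1 of 43.

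Copy number was also compared. Genes that are the only member of their numbered family were marked in 15.4% (10.7 to 21.2) and 24.9% (19.1 to 31.4) of 201 cases. Families of 2 to 4 genes stood at 23.7% (15.5 to 33.6) and 29% (20.1 to 39.4) of 93. Those in families of 5 or more genes were marked in 21.7% (14.9 to 29.8) and 37.2% (28.9 to 46.2) of 129. Without a coding gene end within 1 kb these shares were 13% and 20.5% of 185, 19% and 20.3% of 79, and 17.3% and 31.7% of 104, with overlapping intervals in both libraries.

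Other transcripts of RNA polymerase III were marked in 9 of 37 cases without doxycycline (24.3%, 11.8 to 41.2) and 13 at day 5 (35.1%, 20.2 to 52.5). All RefSeq genes stood at 7.95% and 14.7% by this rule. This list was not divided by nearness to a coding gene end. RN7SK, the RNA that holds the elongation factor P-TEFb inactive, had 39 and 38 fragments. RNU6ATAC, a minor spliceosome RNA, had 11 and 28, RMRP, the RNA of RNase MRP, 14 and 28, and the Y RNA gene RNY5 16 and 26. RN7SL1 and RN7SL2, which encode the RNA of the signal recognition particle, had 16 and 25, and 16 and 24. These 6 had the highest-ranked day 5 peaks of the list, a choice that favours higher day 5 values. Of the other members marked in both libraries, the U6 gene RNU6-2 had 17 and 14 fragments, the vault RNA gene VTRNA1-2 8 and 7, and RPPH1, the RNA of RNase P, 15 and 17. The tandem array of 17 5S ribosomal RNA genes had none marked without doxycycline and 1 at day 5, and the other 20 genes had 9 and 12.

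A set of 50 genes covered the RNA polymerase III machinery as a whole, not only its part at tRNA genes, and tRNA processing and export. Of these, 21 were marked without doxycycline (42%, 28.2 to 56.8) and 35 at day 5 (70%, 55.4 to 82.1). By the same rule 17.1% and 31.7% of coding genes were marked. Both lists marked 20 of the 50, day 5 alone 15 and the other list alone 1, where the shares of coding genes were 15.2%, 16.5% and 1.92%. Of 13 subunits of RNA polymerase III, 11 and 12 were, led by POLR3D with 28 and 52 fragments and CRCP with 32 and 35. Of 11 genes of TFIIIA, TFIIIB and TFIIIC, 2 and 8 were, with GTF3C2 at 33 and 46 and GTF3C4 at 26 and 41. RNase P, which trims the 5′ end of tRNA, had 3 and 5 of 10, with RPP40 at 26 and 40 fragments. ELAC2, which trims the 3′ end, had 16 and 27. These members too were named by day 5 rank, and POLR1C with 13 and 8 fragments and POLR3GL with 10 and 6 had fewer at day 5. SNAPC3 was listed only without doxycycline, with 5 fragments. At day 5 limited to equal numbers of peaks, 21 of the 50 were marked.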

How the data were processed

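Of the 24 samples, the deposited Myc peak lists of 2 libraries were used, and the other 22 were not analysed here. Samples were grouped by title. The submitters' processing notes name hg38 as the build, and Bowtie2, MACS2, Trim Galore and deepTools as tools. Their versions and settings, the handling of reads with several placements and the use of an IgG control are not stated there. The 10 unnamed columns of each list were read as MACS2 peaks of 1 library. For each peak the authors deposited a score, which equals 10 times the −log10 q-value without its decimals, a fold over local background (a ratio), a −log10 p-value, a −log10 q-value and the summit's offset. Depth per library is not in the lists. Fold and −log10 p together gave whole numbers of summit fragments for 100% of peaks, within 0.001 in −log10 p. Ranks are within a list.

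Gene spans came from RefSeq GRCh38.p14. Peaks within 1 kb of a span marked a gene. Peaks were matched between lists by any overlap, except in the pairs at tRNA genes marked in both lists. Those pairs joined the best-ranked peaks of a gene in each list, whether or not they overlapped. Named tRNA genes were the 10 with the highest-ranked day 5 peak in both lists, up to 10 in 1 list only, the 3 on either side of the 1 kb limit, and all initiator and selenocysteine genes; from the lists, up to 6 members by rank and those without doxycycline only. Other genes named were chosen after their values were seen. The members and lists were chosen with earlier results of these data known. The steps were tested on simulated data, where 100% of fragment numbers in lists of 3472 and 6727 peaks and 60 of 60 planted genes were recovered and 0 of 60 decoys marked. Python 3.11.15, pandas 2.3.3, numpy 2.4.6 and scipy 1.17.1 were used.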

Additional observations from a re-analysis of the deposited data

Results flagged for a closer look

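The mitochondrial tRNA genes, which lie outside the nuclear set, are the signal found in data that no comparison used. All 22 were within 1 kb of a listed peak without doxycycline and 12 at day 5, and 9 and 6 were overlapped by a peak. The mitochondrial genome carried 5 and 3 peaks. Other mitochondrial genes were not counted by this rule, so whether these counts are particular to tRNA genes was not tested. No control library was analysed here, and what these peaks stand for was not tested.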

How the results depend on the processing

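Of 77 values under other settings, 52 stayed within 1.5 times the value reported and 25 did not, each given here as the library without doxycycline first. Asking for overlap with the gene span left 43 and 79 marked tRNA genes, 35 in both lists and 8 without doxycycline only. Keeping the better-ranked 50% of peaks gave 45 and 63, with 33 in both and 30 at day 5 only. Leaving out genes with a coding gene end within 1 kb left 39 at day 5 only and 9 without doxycycline only. With 2500 bp in its place there were 43 and 68 marked genes, 34 in both, 34 at day 5 only and 9 without doxycycline only. Equal numbers of peaks gave 68 marked tRNA genes at day 5 (15.3%), 18 of them at day 5 only, beside 31 without doxycycline only, and 44 peaks at tRNA genes. The day 5 shares were then 12.4% of tRNA genes away from coding gene ends, 15.7% of coding genes, 2.56% of microRNA genes and 5.53% of long non-coding genes. Of the 50 genes of the RNA polymerase III machinery and tRNA processing, 21 were marked. Windows of 500 and 2500 bp, summits within 1 kb, a −log10 q-value of at least 3, merged peaks and other chaining of loci and clusters changed no count by more than 1.5 times.

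No paired analysis was possible because each condition has 1 library. Library depth is unknown, and what it limits was not tested.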
